A study of Homo sapiens with 4 samples.

Results

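Open chromatin regions that were called in vehicle-treated endometrial cancer cells and had no counterpart after estradiol are described here. The cells were Ishikawa, an established human endometrial adenocarcinoma line that carries the estrogen receptor, and openness was read by ATAC-seq, in which a transposase inserts sequencing adapters where DNA is not wrapped in nucleosomes. A region belonged to the set when it was called in the vehicle library on chromosomes 1 to 22 or X and shared not even 1 bp with any region of the estradiol library. This rule took 246 of the 1914 vehicle regions on those chromosomes (12.9%), and the other 1668, which touched an estradiol region, serve as the comparison and are called the kept regions. All 4 lists of the series together held 15269 regions. The set was chosen by the calls of the vehicle and estradiol libraries, so its values in those 2 libraries are given as a description, with no test.

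All cells had been kept in hormone-poor medium, without phenol red and with serum stripped by charcoal, before a treatment of 1 hour. The vehicle cells received DMSO, the estradiol cells 10 nM 17-beta-estradiol, the dexamethasone cells 100 nM dexamethasone, and the combination cells both hormones at those doses. There was 1 library per treatment, so no spread between replicates exists, no p-value is given, and the intervals below are 95% exact Clopper-Pearson intervals that cover counting error only. Genes and sequences at these regions were not analysed here, since the coordinates are on hg19 and the annotation at hand is on another build.

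Estradiol is the natural ligand of the estrogen receptor, a transcription factor that binds DNA at estrogen response elements, often at distal enhancers that are already open, and recruits coactivators there. Dexamethasone is a synthetic ligand of the glucocorticoid receptor, a related factor that also binds both open and closed chromatin and can change how open its sites are. Hormone treatment can add open sites, and it can also reduce the openness of others. A region in a peak list is a site where tags pile up beyond the local background of that library. A missing call means that the site stayed below the calling threshold, not that it was closed.

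The estradiol library was the deeper one. After duplicate removal it held 20185339 tags, against 10694743 in vehicle, 14980230 after dexamethasone and 8240912 in the combination. Its list was not the longest. The full lists held 4772 regions after estradiol, 1923 in vehicle, 8428 after dexamethasone and 146 in the combination. The caller extended each tag to a modelled fragment length of 104 bp in vehicle, 89 bp after dexamethasone, 84 bp after estradiol and 51 bp in the combination. The height of a region, its pileup, is the number of extended tags over the summit. Tags times fragment length would set the height of an equally open site if the libraries had equal shares of their tags at open sites. That share was not measured here. The height would then be 1.52 times the vehicle height after estradiol, 1.20 times after dexamethasone and 0.378 times in the combination. At the 1668 kept regions the estradiol pileup was a median of 1.25 times the vehicle pileup, below that ratio, and at the 1647 kept regions called after dexamethasone the dexamethasone pileup was a median of 1.56 times the vehicle pileup, above it. Relative to tags and fragment length the estradiol library thus had the lowest median of these 3 at the kept sites. These sites were chosen by their vehicle and estradiol calls, and heights at sites called for being high in vehicle tend to be too high. The ranking is therefore a description only. The part of such a library difference in the missing calls was not tested.

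In the vehicle library the missing regions were low, short and on average weaker than the kept ones. Their pileup ran from 11 to 27 tags with a median of 16, where the kept regions ran from 10 to 93 with a median of 19. The 2 sets overlapped over nearly the whole range of the missing regions, and 8.54% of the missing regions (21 of 246, interval 5.36 to 12.8) lay in the upper quartile of vehicle fold enrichment, against 27.6% of the kept regions (460 of 1668, 25.4 to 29.8). The fold enrichment, the pileup plus 1 over the local background plus 1 in the same library, had a median of 8.99 (6.11 to 13.5) in missing and 9.61 (4.86 to 25.4) in kept regions. The local background itself was also lower at the missing regions, with a median of 0.863 extended tags against 1.04. Their median length was 119 bp against 157 bp. Of the missing regions, 58 (23.6%, 18.4 to 29.4) had the shortest length in the vehicle list, 104 bp, which is its fragment length, against 157 kept regions (9.41%, 8.05 to 10.9).

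**Figure D1:**
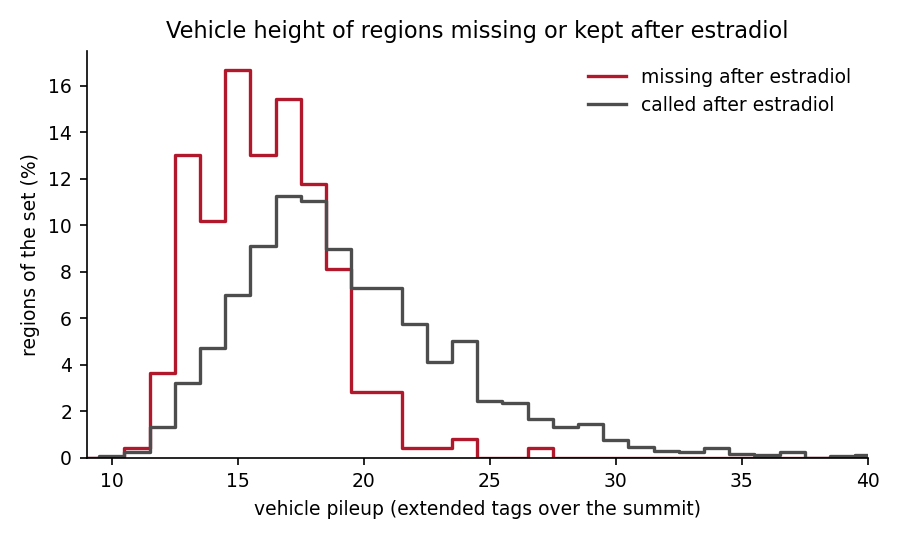
Share of each set (y axis, % of regions) at each vehicle pileup (x axis, extended tags over the summit) for the 246 regions missing after estradiol and the 1668 kept ones; 21 kept regions above 40 tags are outside the axis. The missing regions gather between 12 and 19 tags, and the kept regions reach further to the right.

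The share that was missing depended on vehicle height. It was 24.6% of the vehicle regions with a pileup of 10 to 16, 15.3% at 17 to 18, 7.94% at 19 to 21 and 1.05% at 22 to 93, the 4 quartile ranges of the vehicle list. Scaled by tags and fragment length to the estradiol library, the missing regions would have had a median of 24.4 estradiol tags, from 16.8 to 41.2. Scaled in the same way, the kept regions would have had a median of 28.96, from 15.2 to 141.8, and their measured estradiol pileup had a median of 24 tags, from 12 to 101. The scaled heights come from regions called for being high in vehicle, and such heights tend to be too high.

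The strongest missing regions were followed one by one. The highest by vehicle fold enrichment lay on chromosome X from 134232855 to 134232982, with 18 tags and a 13.5-fold enrichment in vehicle, and 22 tags and a 14.4-fold enrichment after dexamethasone. Its nearest estradiol region was 422 kb away. The tallest was on chromosome 1 from 169863394 to 169863510, with 27 tags in vehicle (12.1-fold) and 25 after dexamethasone (9.32-fold). At the vehicle rate, scaled by tags and fragment length, this site would have had 41.2 tags in the estradiol library, and the nearest estradiol region lay 180 kb away. That value is likely too high, since the site was picked as the tallest in vehicle. Kept regions measured a median of 1.25 times their vehicle pileup after estradiol, below the 1.52 used for scaling.

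Another 3 regions on chromosome 1 were among the 10 highest by fold enrichment. The region from 29529428 to 29529585 had 18 tags in vehicle and 20 after dexamethasone. The region from 114447590 to 114447796 had 22 and 27 tags, and the one from 10270454 to 10270586 had 19 and 23. All 3 were higher after dexamethasone by 2 to 5 tags as deposited, and their ratios lay between 0.927 and 1.02 once tags and fragment length were taken into account.

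The others of the 10 varied more. The region on chromosome 12 from 50419233 to 50419350 had 19 tags in both libraries. On chromosome 9 from 35604121 to 35604276 there were 24 tags in vehicle and 25 after dexamethasone, and on chromosome 10 from 99393238 to 99393361 there were 21 and 22. These 3 were nearly level as deposited, and below vehicle after scaling (0.834, 0.869 and 0.874). The region on chromosome 15 from 85458291 to 85458416 went the other way, with 19 tags in vehicle and 34 after dexamethasone. The remaining one, on chromosome 17 from 22261521 to 22261624 (17 tags, 12.5-fold), lay 241 kb from the nearest dexamethasone region.

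The dexamethasone library took no part in choosing the set, although its comparison with vehicle shares the vehicle library with the rule. Its list was also longer, with 8428 regions against 4772 after estradiol, and the part of list length in the calls below was not tested. Most of the missing regions were called after dexamethasone. Of the 246, 209 overlapped a dexamethasone region (85.0%, 79.9 to 89.2), where 97.0% of all vehicle regions did. The 37 without one were 15.04% of the set (10.8 to 20.1), where 3.03% of all vehicle regions lacked a dexamethasone call. Among the kept regions 1647 of 1668 were called after dexamethasone (98.7%, 98.1 to 99.2). The missing regions were therefore called less often than kept ones in a library that did not define them, and still in the large majority of cases. By the rule the kept regions had already passed a further call, after estradiol, and the part of that selection in this difference was not tested.

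The gap in calls was also present within the lower ranges of vehicle height. Equal vehicle height does not make the sets alike, since by the rule only the kept regions also had an estradiol call. At a vehicle pileup of 10 to 16, 113 of 140 missing regions were called after dexamethasone (80.7%, 73.2 to 86.9), against 421 of 429 kept ones (98.1%, 96.4 to 99.2). At 17 to 18 tags the counts were 59 of 67 (88.1%, 77.8 to 94.7) and 364 of 372 (97.8%, 95.8 to 99.1). At 19 to 21 tags 32 of 34 (94.1%, 80.3 to 99.3) and 391 of 394 (99.2%, 97.8 to 99.8) were called, and the intervals overlap. At 22 tags or more all 5 missing regions were called, as were 471 of 473 kept ones. Only the 2 lower ranges thus hold intervals that do not overlap, and the upper 2 hold few missing regions. At single heights from 12 to 21 tags, missing regions were called less often than kept ones at 8 of 10, by a small margin at 16 and 18 tags, and as often or more often at 20 and 21. In the quartile ranges of fold enrichment the missing regions were called in 84.1%, 81.6%, 87.5% and 95.2%, from the lowest range to the highest, and the kept ones in 98.5%, 98.2%, 98.8% and 99.3%.

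**Figure D2:**
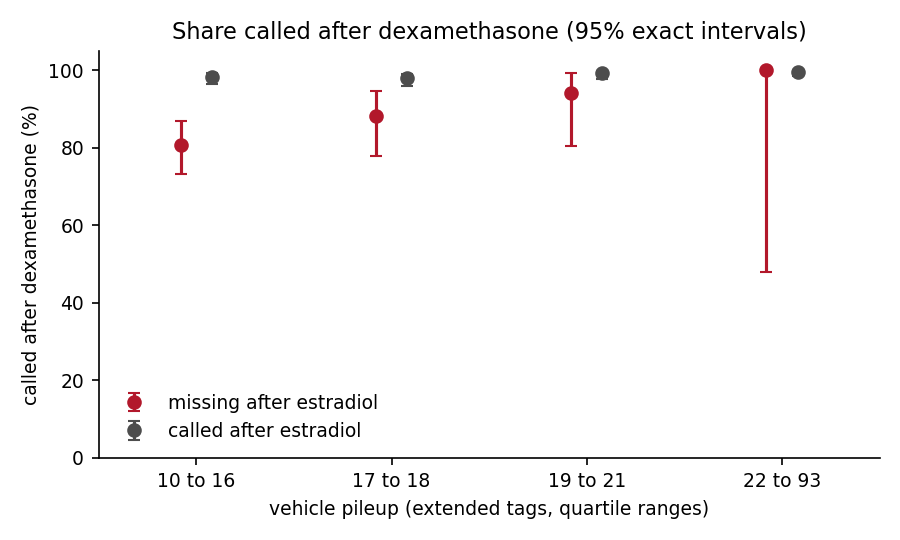
Share of regions called after dexamethasone (y axis, %) in the 4 quartile ranges of vehicle pileup (x axis, extended tags), with 95% exact intervals, for missing and kept regions. The missing regions lie at 80.7% and 88.1% in the lower 2 ranges, below the kept regions at 98.1% and 97.8%, and the intervals meet in the upper 2.

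Where they were called, the missing regions were also lower after dexamethasone than kept regions of the same vehicle height. Here too the kept regions had passed a further call, after estradiol. The part of that selection in the difference was not tested. The dexamethasone pileup over the 209 ranged from 12 to 34 tags with a median of 21, against 12 to 95 with a median of 30 over 1647 kept regions. The sets overlap over the whole range of the missing regions, and only 3 of the 209 had a dexamethasone pileup at least 2 times that in vehicle (1.44%, 0.297 to 4.14), against 193 kept regions (11.7%, 10.2 to 13.4). At each of the 10 vehicle heights from 12 to 21 tags, which had at least 5 missing regions each, the median dexamethasone pileup was lower for missing than for kept regions, by 4 to 7 tags. At 16 vehicle tags, for example, 31 missing regions had a median of 20 dexamethasone tags (quartiles 18 and 23) and 150 kept regions a median of 26 (23 and 29). Regions not called after dexamethasone have no height there and are left out of these medians, and the missing set lost more of them.

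**Figure D3:**
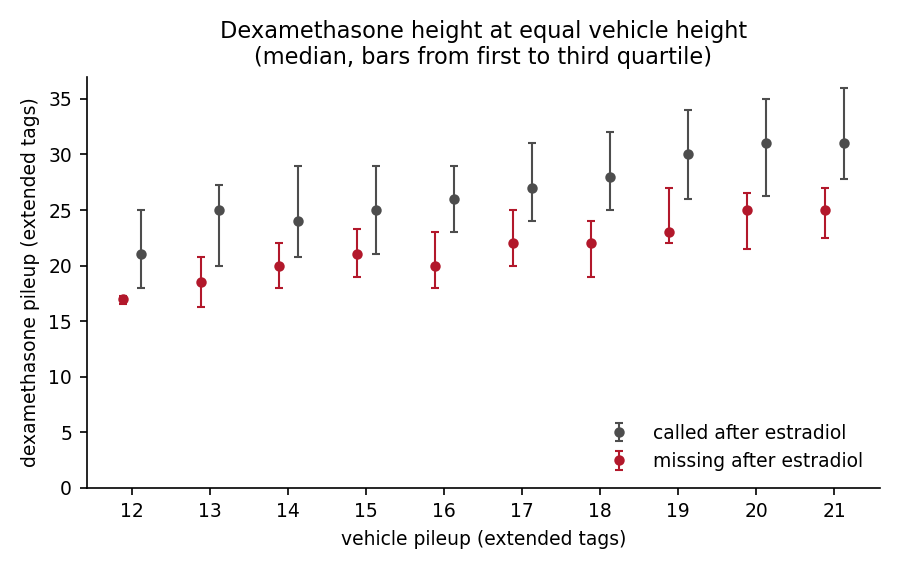
Dexamethasone pileup (y axis, extended tags) at each vehicle pileup from 12 to 21 (x axis, extended tags) for missing and kept regions called in both libraries; points are medians and bars run from the first to the third quartile. At all 10 heights the median of the missing regions lies 4 to 7 tags below that of the kept regions.

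Set against vehicle, the dexamethasone height at the missing regions was near the ratio of 1.20 given by tags and fragment length. The local background differed as well. At the 209 its median was 0.874 extended tags in vehicle and 1.21 after dexamethasone. At kept regions it was 1.04 in vehicle and, where called, 1.53 after dexamethasone. Which scaling applies was not tested. The median ratio of dexamethasone to vehicle pileup as deposited was 1.31 over the 209 (quartiles 1.15 and 1.47), against 1.56 over kept regions (1.36 and 1.78). Divided by tags and fragment length it was 1.09 against 1.30. Divided by tags alone it was 0.934, so that its direction depends on the scaling, against 1.11 in kept regions. A ratio of at least 1.5 as deposited was reached by 47 of the 209 (22.5%, 17.0 to 28.8), where 54.6% of all vehicle regions called in both libraries reached it. The dexamethasone pileup was below the vehicle pileup at 12 (5.74%, 3.002 to 9.81), where 1.83% of all were, and equal at 10. After scaling by tags and fragment length 67 of the 209 were below vehicle (32.1%, 25.8 to 38.8), where 12.4% of all were.

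The fold enrichment also differed less from vehicle at missing than at kept regions. Because 1 is added to pileup and background, and both are small, it rises with depth: scaling the vehicle values by tags and fragment length alone would give a median difference of 0.80 at missing and 0.76 at kept regions. The measured median difference, dexamethasone minus vehicle, was 0.84 over the 209 (quartiles -0.17 and 1.93) and 2.28 over kept regions (1.01 and 3.71). The median at missing regions was thus near the value that scaling alone gives. At 102 of the 209 the difference was below that value (48.8%, 41.8 to 55.8), where 23.9% of all vehicle regions called in both libraries were below it, and at 341 kept regions (20.7%, 18.8 to 22.7). Ranked by p-value within the dexamethasone list, where 100 is the strongest, the regions over missing sites had a median percentile of 51.9, near the middle of that list, and those over kept sites one of 86.7. Only 6 of the 209 were in the strongest 10% of the dexamethasone list (2.87%, 1.06 to 6.14), against 667 of the 1647 (40.5%, 38.1 to 42.9). These ranks are not matched for vehicle height, which was also greater at kept regions.

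Summit offsets between the vehicle and dexamethasone libraries were similar at missing and kept regions. Only overlapping regions enter here, which by itself limits the offset. The dexamethasone summit lay a median of 39 bp from the vehicle summit at missing regions (quartiles 15 and 68) and 34 bp at kept ones (14 and 65). Within 50 bp lay 127 of 209 missing (60.8%, 53.8 to 67.4) and 1059 of 1647 kept regions (64.3%, 61.9 to 66.6), and these intervals overlap. The dexamethasone regions over missing sites were shorter, with a median of 180 bp against 249 bp.

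A few missing regions stood out for their height after dexamethasone. The highest ratio was on chromosome 3 from 57094557 to 57094676, with 13 tags in vehicle and 31 after dexamethasone, 2.38 times as many, and a fold enrichment of 8.91 and 16.9. On chromosome 9 from 20684218 to 20684340 the counts were 16 and 34, and on chromosome 2 from 179315965 to 179316087 they were 17 and 33. After scaling by tags and fragment length these 3 ratios were 1.99, 1.77 and 1.62. Named by height and not by ratio, they leave out a region on chromosome 1 from 85156295 to 85156404. It had 13 tags in vehicle and 28 after dexamethasone, 2.15 times as many, or 1.80 after scaling. All of these are the upper end of the set and not its middle.

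The other high ones showed smaller differences. On chromosome 4 from 47487229 to 47487354 there were 17 tags in vehicle and 30 after dexamethasone. On chromosome 2 from 162016844 to 162016969 and on chromosome 12 from 14410717 to 14410844 there were 19 and 30 in each case. On chromosome 17 from 66453865 to 66454048 there were 20 and 31, and on chromosome 6 from 13575170 to 13575309 there were 21 and 29. The region on chromosome 3 from 9438005 to 9438125 had 24 and 31 tags but almost the same fold enrichment, 7.96 and 8.02.

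The 37 missing regions without a dexamethasone call were low in vehicle too. Their vehicle pileup ran from 12 to 19 tags with a median of 15, and 27 of them had 16 tags or fewer. Their vehicle fold enrichment had a median of 8.97, beside 9.02 for the 209 that were called. Examples are the regions on chromosome 7 from 48019166 to 48019279 (15 tags, 10.05-fold), chromosome 5 from 74199317 to 74199429 (13 tags, 9.92-fold) and chromosome 10 from 71906512 to 71906634 (17 tags, 9.88-fold). The nearest dexamethasone region was a median of 29.98 kb away. For the 209 the nearest one other than their own was a median of 54.4 kb away. Within 10 kb such a region lay near 11 of the 37, beside 39 of all 246, and 6 of the 37 had one within 1 kb. The closest case was on chromosome 2 from 65357499 to 65357602, where 22 bp separated the vehicle region from a dexamethasone region. Such a pair counts as no overlap although the edges almost meet.

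The combination list was short, with 146 regions in all against 8428 after dexamethasone, so few calls were possible there for any set. The combination library called 2 of the 246 (0.813%, 0.0986 to 2.91), where 4.13% of all vehicle regions were called, and 77 kept regions (4.62%, 3.66 to 5.74). Both belonged to the 37 without a dexamethasone region, and they were the 2 of that group with the highest vehicle fold enrichment. One was the region on chromosome 17 from 22261521 to 22261624, with 17 tags in vehicle (12.5-fold) and 12 in the combination (10.8-fold), and an estradiol region 8.27 kb away. The other was on chromosome 19 from 36066542 to 36066750, with 14 tags in vehicle (10.5-fold) and 13 in the combination (12.1-fold). Both combination regions were 51 bp long, which is the fragment length of that library. The local background in vehicle was 0.437 and 0.426 extended tags at these sites, near the lowest in the set, 0.412. The remaining 35 regions were called in vehicle alone (14.2% of the set, 10.1 to 19.2). Given the short combination list, this count mainly restates the missing estradiol and dexamethasone calls.

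Distances to other estradiol regions were similar for missing and kept regions at 10 kb and beyond. The median distance to the nearest estradiol region was 88.7 kb for missing regions (interval of the median 72.4 to 106 kb). For kept regions the median distance to the nearest estradiol region other than their own was 95.2 kb (83.9 to 104 kb). Within 10 kb lay 28 of the missing regions (11.4%, 7.70 to 16.03) and 199 of the kept ones (11.9%, 10.4 to 13.6). Within 100 kb lay 132 (53.7%, 47.2 to 60.0) and 852 (51.1%, 48.7 to 53.5). Another vehicle region lay within 10 kb of 10 missing regions (4.07%, 1.97 to 7.35) and 106 kept ones (6.35%, 5.23 to 7.63). The most isolated missing region, on chromosome X from 30907442 to 30907558, was 5925 kb from any estradiol region, and it had 16 tags in vehicle and 22 after dexamethasone. The next 4 were between 1289 and 1488 kb away.

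**Figure D4:**
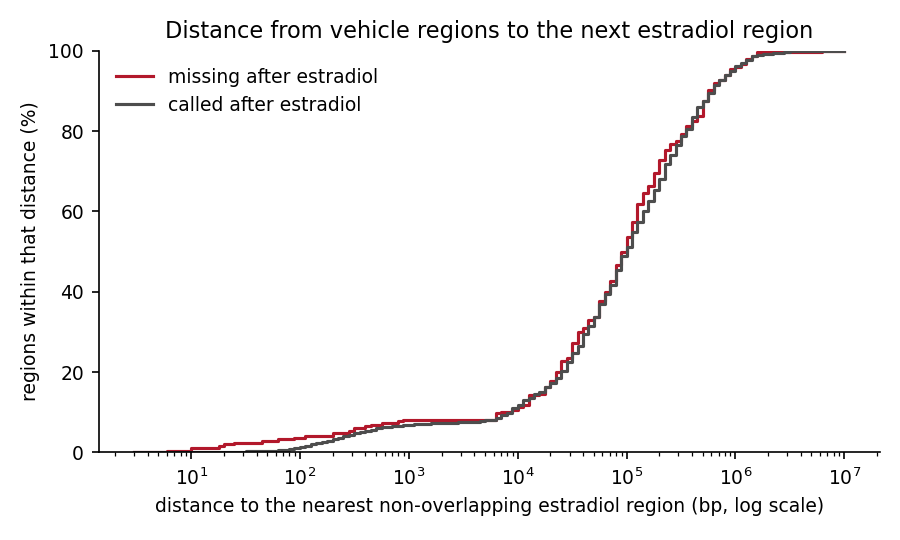
Share of regions (y axis, cumulative %) within a given distance of the nearest estradiol region that does not overlap them (x axis, bp, log scale), for missing and kept regions. The 2 lines run close together, with 11.4% and 11.9% within 10 kb and medians of 88.7 and 95.2 kb.

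A small group was missing by a margin of bases. For 9 of the 246 an estradiol region lay within 100 bp (3.66%, 1.69 to 6.83), and all 9 were called after dexamethasone. Among kept regions 22 of 1668 had an estradiol region other than their own within 100 bp (1.32%, 0.828 to 1.99), a lower share, and the intervals overlap slightly. In 8 of the 9 missing regions the dexamethasone region was long enough to touch the estradiol region as well. The nearest pair was on chromosome 19, where 6 bp separated the vehicle region from 47164591 to 47164703 (17 tags) from an estradiol region from 47164710 to 47164799 (18 tags), and a single dexamethasone region from 47164490 to 47164821 (23 tags) spanned both. On chromosome 3 the vehicle region from 141456860 to 141456963 (15 tags) was 10 bp from an estradiol region (17 tags), and on chromosome 2 the one from 171785425 to 171785528 (16 tags) was also 10 bp from one (19 tags). The next 2, on chromosome 17 from 1018632 and from 26662628, had gaps of 18 and 19 bp. At these sites all 3 libraries held a call, and the estradiol call lay beside the vehicle call.

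Just on the other side of the rule, the kept regions with the fewest shared bases were of similar height in vehicle. The region on chromosome 5 from 137549165 to 137549386 shared 7 bp with its estradiol region, and had 14 tags in vehicle, 24 after dexamethasone and 18 after estradiol. The region on chromosome 20 from 13975807 to 13975923 shared 12 bp (18, 35 and 23 tags in the same order). The one on chromosome 3 from 112950860 to 112950963 shared 13 bp (13, 24 and 16 tags). The last 2, on chromosome 5 from 130971120 and chromosome 4 from 2538000, shared 15 and 16 bp. The 5 regions just outside the set had 13 to 18 vehicle tags, and the 5 just inside it had 14 to 17. Leaving the 9 closest regions out, 200 of 237 were called after dexamethasone (84.4%).

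The missing regions were spread over all 23 chromosomes, with unequal shares. On chromosome 17, 17 of 58 vehicle regions were missing after estradiol (29.3%, 18.1 to 42.7), and on chromosome 19, 17 of 77 (22.1%, 13.4 to 33.0), where the share over all chromosomes was 12.9%. On the X chromosome 8 of 29 were missing (27.6%, 12.7 to 47.2), and all 8 were called after dexamethasone. Chromosome 12 had the lowest share, with 10 of 169 (5.92%, 2.87 to 10.6). These chromosomes were singled out after the values were seen, among 23 without adjustment.

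Chromosomes 17 and 19 together gave 34 missing regions of 135 (25.2%, 18.1 to 33.4), against 212 of 1779 elsewhere (11.9%, 10.4 to 13.5). They were joined because their shares were high, so this gap follows from the choice and is a description only. The X chromosome, with 8 of 29 missing (27.6%), is counted elsewhere. Their vehicle regions were slightly lower, with a median pileup of 17 against 18 and a median fold enrichment of 9.10 against 9.55. At their kept regions the estradiol pileup was a median of 1.25 times the vehicle pileup, as elsewhere, and the dexamethasone pileup 1.47 times, against 1.56 elsewhere. They held 7.05% of the vehicle list, 7.10% of the dexamethasone list and 7.33% of the estradiol list. Of the 34, 26 were called after dexamethasone (76.5%, 58.8 to 89.3), against 183 of 212 elsewhere (86.3%, 80.9 to 90.6), and these intervals overlap. Of the kept regions there 97 of 101 were called after dexamethasone (96.04%), against 98.9% elsewhere. The part of these differences in the missing share was not tested.

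**Figure D5:**
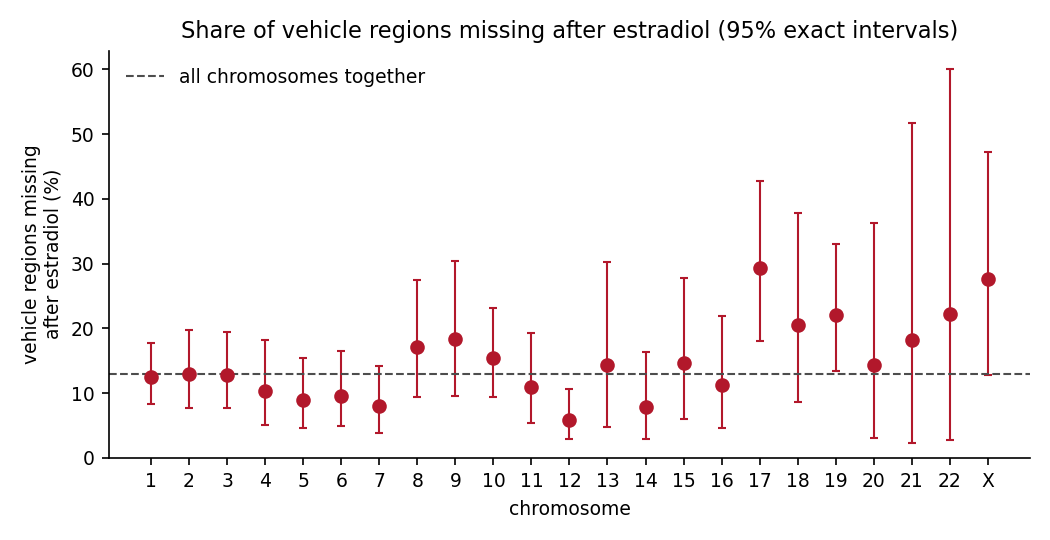
Share of vehicle regions missing after estradiol (y axis, %) on each chromosome (x axis), with 95% exact intervals; the dashed line is the share over all chromosomes, 12.9%. Chromosomes 17 and 19 lie above the line and chromosome 12 below it with their whole intervals, and the intervals of chromosomes with few vehicle regions are wide.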

How the data were processed

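ATAC-seq was done on 4 libraries, 1 per treatment, grouped by the treatment label. Peaks were called with MACS2 2.1.0.20140616, per the file headers, on each library alone and without a control, at a p cutoff of 1e-10; Bowtie 1.1.2 and hg19 are named in the submitters' processing notes. Pileup is a signal that the authors deposited as a whole number of extended tags, with no scaling to depth. Fold enrichment, also deposited, is a ratio to the local background of each library, and p-values and q-values were deposited as −log10. Positions are the authors', counted from 1.

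Overlap, distance (bases between edges) and shares were computed in Python 3.11.15 with numpy 2.4.6, pandas 2.3.3 and scipy 1.17.1, and checked on simulated regions with known overlaps. Where several dexamethasone regions overlapped a vehicle region the highest was taken. Local background was recovered as pileup plus 1, divided by fold enrichment, minus 1. Intervals of medians are binomial, over regions. The set, the ranges and the alternatives were chosen with earlier results of these data known. Named regions are those highest by vehicle fold enrichment, highest after dexamethasone, highest without a dexamethasone call, called in the combination, and nearest to or farthest from an estradiol region; for some of these lists only the first few are given. Gene distances and motifs had been planned and were not analysed here.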

Additional observations from a re-analysis of the deposited data

How the results depend on the processing

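Of 36 alternative values, 31 stayed within the interval of the main value or, for counts, within 1.5 times of it. Counting a region as shared only when the summit of the other list lay inside the vehicle region gave 435 missing regions in place of 246, of which 62.8% were called after dexamethasone by the same rule in place of 85.0%. The other overlap rules and stricter thresholds gave 188 to 298 missing regions and shares of 82.9% to 86.7%. The median ratio of dexamethasone to vehicle pileup, 1.31 as deposited, was 1.09 per tag and fragment length and turned to 0.934 per tag, since the dexamethasone library has more tags and a shorter fragment length than vehicle. An estradiol region lay within 100 kb of 53.7% of the missing regions, in place of 11.4% within 10 kb, which is a wider window by construction. Leaving out chromosomes 17 and 19, chosen after seeing the data, gave 212 missing regions, 86.3% of them called after dexamethasone. The share near a transcription start and the motif shares were not run. No paired analysis was possible because each treatment had 1 library. Vehicle pileups of 11 to 27 tags limit the precision at every single missing region.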

Other observations

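Outside chromosomes 1 to 22 and X the vehicle list held 9 regions, and 1 of them, on mitochondrial DNA, had no estradiol region. Regions of the shortest vehicle length, 104 bp, were called after dexamethasone in 46 of 58 cases when missing after estradiol (79.3%, 66.6 to 88.8) and in 154 of 157 when kept (98.1%, 94.5 to 99.6), so the difference in calls between the 2 sets was also present at equal length. Vehicle height was not matched here, and by the rule the kept regions had also passed an estradiol call. A dexamethasone region that did not overlap the site lay within 10 kb of 39 missing (15.9%, 11.5 to 21.03) and 274 kept regions (16.4%, 14.7 to 18.3), and these intervals overlap.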
